A study of Homo sapiens with 5 samples.

Results

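The C/D box small nucleolar RNAs (snoRNAs) of TOV21G cells, an established human ovarian clear cell carcinoma line, were taken as every row of the deposited gene table whose symbol starts with SNORD and a digit. This gave 239 of 28442 gene rows. Of these, 23 belong to the SNORD116 cluster and 36 to the SNORD115 cluster, both in the imprinted region of chromosome 15q, and the other 180 are spread over the genome. Total RNA, isolated with Trizol and made into libraries with a stranded kit, was sequenced from 5 libraries, 1 for each treatment. The series title ties HDAC6, a mainly cytoplasmic deacetylase, to ovarian cancers with mutated ARID1A, a chromatin remodelling subunit. The control group held the control hairpin library (shControl) and the drug vehicle library (vehicle). The repressed HDAC6 group held a hairpin against HDAC6 (shHDAC6) and the HDAC6 inhibitors ACY1215 and CAY10603. The labels name puromycin selection for virus-infected cells and list a pair of HDAC6 hairpins, but not which one this library carried, and the sources used here give no doses or times. No label describes repeated cultures, so any p-value below measures only the spread between these 5 libraries.

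C/D box snoRNAs are short nuclear RNAs named for conserved box C and box D motifs near their ends, which fold together and bind a set of core proteins including the methyltransferase fibrillarin. Most of them base-pair with ribosomal or spliceosomal RNA and direct methylation of the ribose at a chosen nucleotide, and a few, such as U3, U8, U14 and U22, act in the cleavage of the ribosomal RNA precursor. In human cells most are cut out of introns of host genes. SNORD115 and SNORD116 are made from a long paternally expressed transcript that is best known from neurons, and loss of SNORD116 is tied to Prader-Willi syndrome.

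GENCODE 29 on GRCh38 held 213 of the 239 symbols and supplied the sequences and positions. The submitters' processing notes name hg19 and the deposited table holds no coordinates, so the positions are of the GENCODE build only. The first set shows the RNAs outside the SNORD116 cluster on which the knockdown comparison turned, together with SNORD22, an RNA needed for processing of the ribosomal RNA precursor. Capitals mark box C (TGATGA) where it starts within the first 50 bases, and the last box D (CTGA) within the last 50 bases.
SNORD97: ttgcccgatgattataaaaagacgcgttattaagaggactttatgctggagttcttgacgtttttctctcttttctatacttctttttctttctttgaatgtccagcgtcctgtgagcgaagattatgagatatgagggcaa
SNORD10: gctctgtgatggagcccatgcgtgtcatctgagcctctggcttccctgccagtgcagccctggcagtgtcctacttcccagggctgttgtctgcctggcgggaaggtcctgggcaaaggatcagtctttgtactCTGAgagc
SNORD17: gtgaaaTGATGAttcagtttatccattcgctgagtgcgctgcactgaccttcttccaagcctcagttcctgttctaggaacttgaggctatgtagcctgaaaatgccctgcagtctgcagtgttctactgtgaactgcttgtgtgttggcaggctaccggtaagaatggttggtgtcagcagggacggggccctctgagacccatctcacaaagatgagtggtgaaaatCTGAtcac
SNORD22: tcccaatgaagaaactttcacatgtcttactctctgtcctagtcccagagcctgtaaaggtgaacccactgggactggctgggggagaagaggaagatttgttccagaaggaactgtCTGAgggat
SNORD8: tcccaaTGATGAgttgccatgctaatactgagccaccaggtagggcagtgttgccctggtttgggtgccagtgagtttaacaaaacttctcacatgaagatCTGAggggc
SNORD89: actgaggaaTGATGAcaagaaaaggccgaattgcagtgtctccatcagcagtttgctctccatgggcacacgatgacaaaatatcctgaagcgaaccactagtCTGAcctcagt

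SNORD97 lay at chr11:10801467-10801608 on the minus strand, within EIF4G2, and overlapped an exon of at least 1 annotated transcript. SNORD10 lay at chr17:7576811-7576952 on the plus strand within EIF4A1 and its read-through with SENP3, again over an annotated exon. SNORD17 lay at chr20:17962710-17962946 on the minus strand, in an intron of SNX5, and with 237 bases was the longest of the matched rows. SNORD22 lay at chr11:62852910-62853035 on the minus strand, over an exon of SNHG1. SNORD8 lay at chr14:21397292-21397401 on the minus strand, over an exon of CHD8. SNORD89 lay at chr2:101272936-101273049 on the minus strand, over an exon of RNF149. SNORD97 held neither motif in these exact letters, and SNORD10 and SNORD22 held the box D letters only.

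The second set shows SNORD116 copies that are nearly the same as each other, followed by copies that differ from them.
SNORD116-3: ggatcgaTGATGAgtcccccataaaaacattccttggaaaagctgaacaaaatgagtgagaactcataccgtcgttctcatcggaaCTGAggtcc
SNORD116-5: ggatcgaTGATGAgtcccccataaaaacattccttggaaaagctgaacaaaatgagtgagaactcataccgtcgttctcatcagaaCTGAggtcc
SNORD116-8: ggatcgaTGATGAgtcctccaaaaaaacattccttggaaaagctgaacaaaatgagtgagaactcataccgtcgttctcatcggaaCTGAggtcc
SNORD116-20: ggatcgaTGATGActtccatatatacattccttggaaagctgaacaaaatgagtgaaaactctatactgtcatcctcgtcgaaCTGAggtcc
SNORD116-13: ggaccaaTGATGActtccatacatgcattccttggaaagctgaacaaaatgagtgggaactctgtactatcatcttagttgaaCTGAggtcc
SNORD116-26: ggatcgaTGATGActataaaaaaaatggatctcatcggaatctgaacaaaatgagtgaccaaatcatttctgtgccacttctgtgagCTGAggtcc

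All of them lay on the plus strand within SNHG14, from SNORD116-3 at chr15:25056860-25056954 over SNORD116-5 at chr15:25062333-25062427, SNORD116-8 at chr15:25070432-25070526, SNORD116-13 at chr15:25079058-25079149 and SNORD116-20 at chr15:25087662-25087753 to SNORD116-26 at chr15:25099499-25099594. SNORD116-3 and SNORD116-5 were 98.9% identical, and SNORD116-3 and SNORD116-8 were 97.9% identical. SNORD116-13 and SNORD116-20 were 88.0% identical, whereas SNORD116-26 reached only 68.4% with SNORD116-3. Over the 30 SNORD116 copies in GENCODE, 27 sequences were distinct and the median identity of 435 pairs was 83.5%. SNORD116-3 equals SNORD116-9, SNORD116-5 equals SNORD116-7, and SNORD116-17 equals SNORD116-19. Reads of such copies can be split between rows, so values of single SNORD116 rows are uncertain.

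Both motifs were searched on the RNA strand over all matched rows. Box C was present in 158 of 213 rows (74.2%), box D in 207 (97.2%) and both in 156 (73.2%). Both were present in 0.671% of 149 H/ACA (SNORA) transcripts and in 0.439% of 206604 GENCODE transcripts of at least 50 bases, where box C alone reached 1.44% and box D alone 23.2%. Both motifs were found in 95.5% of the SNORD116 rows, 83.3% of the SNORD115 rows and 67.7% of the others.

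The libraries held between 43498805 (vehicle) and 57442767 (shControl) counts, and 1 count was worth 0.0174 to 0.0230 CPM, the count scaled to the library total. The HDAC6 transcript stood at 48.1 CPM in shControl and 29.8 in shHDAC6, against 52.3 in vehicle, 31.7 in ACY1215 and 47.8 in CAY10603. All 6 fixed clear cell carcinoma markers reached a mean of 1 CPM (summed level 687 to 919 CPM per library). Markers of endothelium (0 of 3 at 1 CPM, sum 0.220 to 0.472 CPM) and erythroid cells (0 of 2, sum 0 to 0.0410 CPM) stayed under that level, and of 5 leukocyte markers only CD68 reached it (sum 1.74 to 4.94 CPM). Of 4 fibroblast markers COL1A1 and COL1A2 reached it (sum 25.2 to 36.3 CPM), and of 4 neuronal markers RBFOX3 and SNAP25 did (sum 2.35 to 17.3 CPM).

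Most C/D box rows were empty. No count was recorded in any library for 167 of 239 rows (69.9%), against 17.2% of the whole table, 25% of 108 H/ACA rows and 12.5% of 24 Cajal body (SCARNA) rows. A total of 1 to 9 counts was recorded for 34 rows and at least 10 counts for 38. A count of 0 in a library allows a level of up to 0.0522 CPM (shControl) to 0.0690 CPM (vehicle), taken as 3 counts and covering counting error only. The 40 rows of SNORD112, SNORD113 and SNORD114, from the imprinted DLK1-DIO3 region, were all at 0. Of 36 SNORD115 rows 33 were at 0, and the cluster held 1 count in vehicle, 3 in CAY10603 and 0 in the other libraries. The SNORD116 cluster differed, with 15 of 23 rows at 10 or more counts and 5 at 0. SNORD109B of the same region was at 0.

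Detection went with the length of the RNA. The matched rows outside SNORD115 and SNORD116 ranged from 64 to 237 nucleotides, with a median of 75. Among 102 rows shorter than 80 nucleotides 87 (85.3%) were at 0, among 38 rows of 80 to 99 nucleotides 22 (57.9%), and among 8 rows of 100 to under 120 nucleotides 3 (37.5%). None of the 7 rows of 120 nucleotides or more was at 0, and all 7 held at least 10 counts. The rows shorter than 80 nucleotides include the matched SNORD112, SNORD113 and SNORD114 rows, which are 69 to 78 nucleotides long and all at 0. The share at 0 without that region was not computed. SNORD115 rows, mostly at 0, had a median length of 82 nucleotides in GENCODE, and SNORD116 rows, mostly detected, of 92. For some SNORD116 rows, including the most abundant, the transcripts counted were longer than the snoRNA, as given below. The SNORD116 median can thus not be read as part of this trend. The levels below are therefore those of the RNAs these libraries kept and counted, and levels of different rows are not compared per length, because the FPKM (fragments scaled to transcript length and library size) of short rows is unstable.

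**Figure D1:**
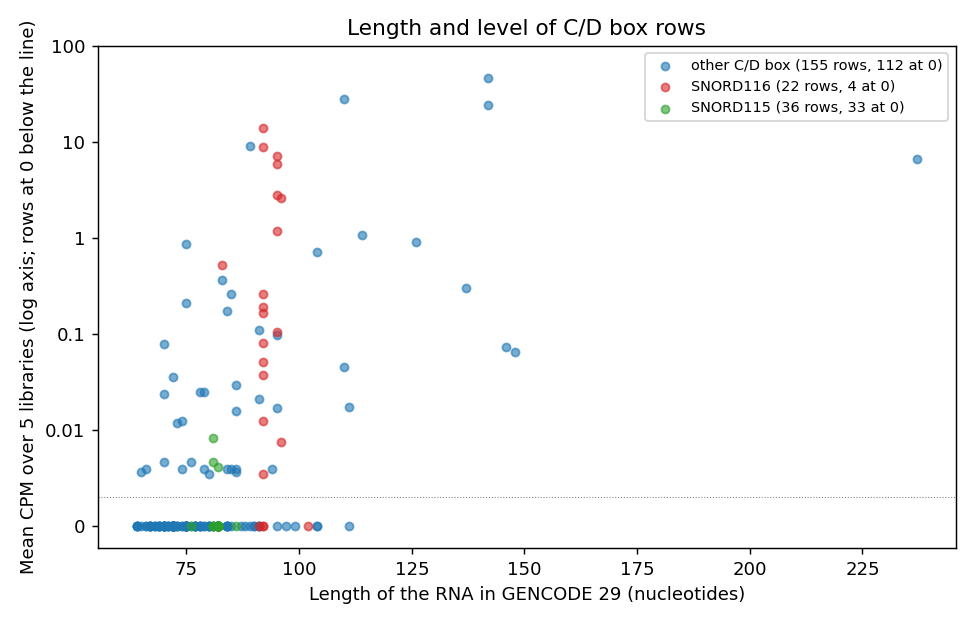
Mean CPM over the 5 libraries (log axis, rows at 0 drawn below the dotted line) against the RNA length in GENCODE (nucleotides), 1 point per matched row, coloured by cluster. For some SNORD116 rows, including the most abundant, the transcripts counted were longer than the length drawn. All 7 rows of 120 nucleotides or more outside SNORD115 and SNORD116 have counts, whereas 87 of the 102 rows shorter than 80 nucleotides are at 0.

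A mean of at least 1 CPM was reached by 14 rows, 7 of SNORD116 and 7 others. Just inside this floor were SNORD116-2 (mean 5.87 CPM), SNORD116-5 (2.78), SNORD116-26 (2.58), SNORD116-8 (1.17) and SNORD89 (1.08), and just outside SNORD22 (0.913), SNORD26 (0.874), SNORD9 (0.708), SNORD116-29 (0.527) and SNORD47 (0.366). SNORD97, SNORD8 and SNORD10 together made up 69.4% (CAY10603) to 79.9% (shHDAC6) of the counts outside SNORD115 and SNORD116. Outside both clusters the rows summed to 103 CPM in shControl and 174 in shHDAC6, against 129 in vehicle, 111 in ACY1215 and 128 in CAY10603. The sum was highest in shHDAC6. The repressed HDAC6 libraries averaged 138 ± 32.9 CPM (SD, n = 3) and the controls 115.996 ± 17.8 CPM (SD, n = 2), with p = 0.6 by an exact two-sided permutation test, which over its 10 arrangements cannot go below 0.2. The SNORD116 rows summed to 60.8, 48.3, 44.2, 28.8 and 36.9 CPM in the same order of libraries. Both shRNA libraries were thus above the 3 drug-experiment libraries, with 37.998 ± 9.83 CPM (SD, n = 3) against 52.5 ± 11.7 CPM (SD, n = 2) for repressed HDAC6 and control (p = 0.4, exact two-sided permutation test). That test does not take the experiment into account, and each of the 3 repressed HDAC6 libraries was below the control of its own experiment. For both inhibitors that control is the same vehicle library. In cells sequenced in bulk, fewer cells that make an RNA and less of it per cell cannot be told apart.

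**Figure D2:**
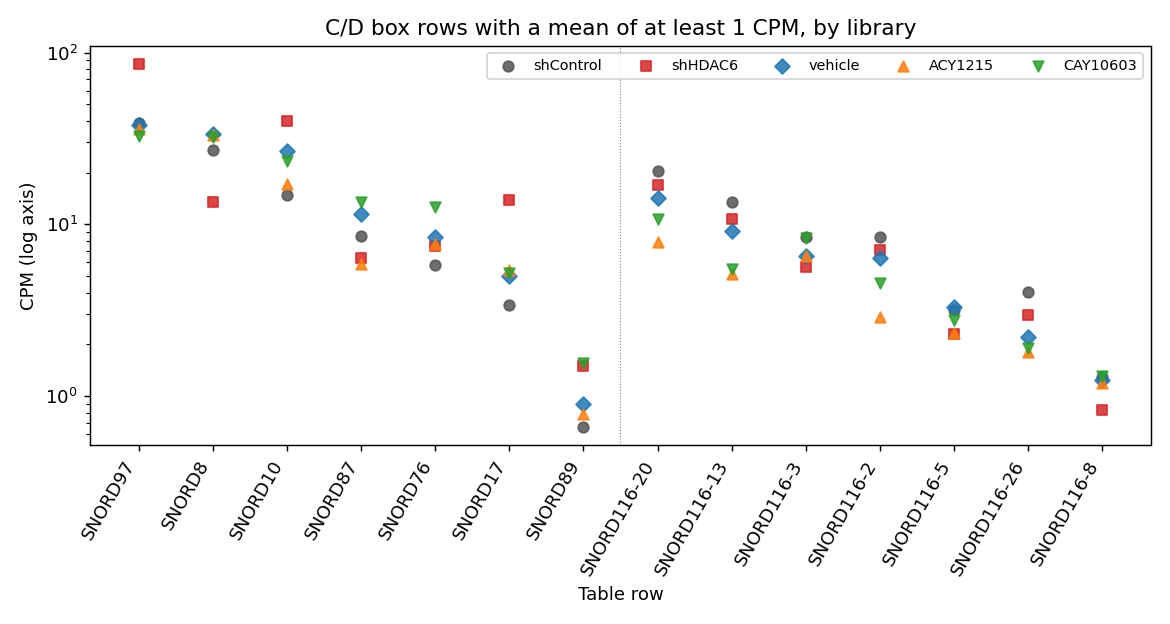
Level of the 14 rows with a mean of at least 1 CPM, in CPM on a log axis, 1 symbol per library, with SNORD116 rows to the right of the dotted line. The shHDAC6 library is the highest of the 5 for SNORD97, SNORD10 and SNORD17 and the lowest for SNORD8.

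Across all 5 libraries no C/D box row passed the test of repressed HDAC6 against control. With experiment type as a covariate, edgeR's quasi-likelihood test called 0 of 14 SNORD rows and 0 of 13449 rows in all (0%) at an adjusted p under 0.05. At an unadjusted p under 0.05 there were 100 rows by edgeR, 112 by DESeq2 and 121 by limma-voom, and the adjusted count was 0 with each tool. SNORD116-13 was the only SNORD row with an unadjusted edgeR p under 0.05 (log2 fold -0.55, standard error 0.20, edgeR adjusted p = 1.00). It was 13.4 CPM in shControl and 10.8 in shHDAC6, against 9.10 in vehicle, 5.13 in ACY1215 and 5.49 in CAY10603, and lay below the control of its own experiment in 3 of 3 interventions, although shHDAC6 was above vehicle. The 3 log2 folds over own controls had the same sign in 6 of the 14 rows, beside 3014 of 13243 rows in all (22.8%). Vehicle is the control of both inhibitors in this count. The log2 fold of SNORD17 was 0.91 (standard error 0.42, edgeR adjusted p = 1.00). Of the 14 rows, SNORD17 had all 3 repressed HDAC6 libraries above both controls and SNORD116-5 all 3 below both, which is 2 rows, beside 10.7% of all rows at 1 CPM or more.

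The knockdown pair, shHDAC6 against shControl, asks what the hairpin changed relative to a control hairpin. It has 1 library on each side and no test, and its folds were computed from counts scaled by TMM (trimmed mean of M values) with a prior count of 2 and exact binomial intervals at 95% for counting error only. SNORD17, SNORD10, SNORD97 and SNORD89 were at least 2-fold higher in shHDAC6 and SNORD8 at least 2-fold lower, which is 5 of 14 rows. Of all rows at this level 1.31% were at least 2-fold higher and 0.604% lower, or 1.92% in either direction. The median log2 fold was 1.08 for the 7 rows outside SNORD116 and -0.49 for the 7 SNORD116 rows, beside -0.01 for all rows.

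SNORD17, a guide for methylation of 28S ribosomal RNA, was 3.39 CPM in shControl and 13.8 in shHDAC6, against 5.03 in vehicle, 5.40 in ACY1215 and 5.23 in CAY10603. The shHDAC6 library was the highest and shControl the lowest, while the drug-experiment libraries lay close together. The log2 fold of shHDAC6 was 1.96 (interval 1.74 to 2.20) over shControl and 1.48 over vehicle.

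SNORD10, a guide for the spliceosomal U6 RNA, was 14.7 CPM in shControl and 39.9 in shHDAC6, against 26.7 in vehicle, 17.2 in ACY1215 and 23.4 in CAY10603. Here shControl was the lowest library, and the log2 fold of shHDAC6 was 1.38 (interval 1.27 to 1.501) over shControl but 0.61 over vehicle. SNORD97, which guides methylation of the wobble cytidine of an elongator methionine tRNA, was 39.0 CPM in shControl and 85.8 in shHDAC6, against 37.7 in vehicle, 35.8 in ACY1215 and 32.9 in CAY10603. Only shHDAC6 was set apart, with a log2 fold of 1.08 (interval 1.01 to 1.16). SNORD89 was near the floor, with 38 counts in shControl and 77 in shHDAC6, against 39 in vehicle, 43 in ACY1215 and 76 in CAY10603. It was high in shHDAC6 and CAY10603 alike, and its log2 fold of 1.08 over shControl had a wide interval (0.54 to 1.72).

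SNORD8, which guides methylation of U6 as its relative SNORD9 does, went the other way. It was 27.1 CPM in shControl and 13.6 in shHDAC6, against 33.7 in vehicle, 33.2 in ACY1215 and 32.3 in CAY10603. The 3 libraries of the drug experiment lay close together and shHDAC6 was the lowest, with a log2 fold of -1.04 (interval -1.18 to -0.92). SNORD9 stayed under the floor with 27 counts in shControl and 35 in shHDAC6, against 19 in vehicle, 43 in ACY1215 and 57 in CAY10603, and its log2 fold of 0.45 in the knockdown pair had an interval from -0.29 to 1.26. SNORD22 had 39, 84, 28, 50 and 34 counts in the same order of libraries and a log2 fold of 1.17 (interval 0.65 to 1.80) in the knockdown pair.

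SNORD87 and SNORD76, both guides for 28S ribosomal RNA, differed less. SNORD87 was 8.55 CPM in shControl and 6.40 in shHDAC6, against 11.5 in vehicle, 5.84 in ACY1215 and 13.5 in CAY10603, with a log2 fold of -0.47 (interval -0.67 to -0.26). SNORD76 was 5.81, 7.45, 8.46, 7.69 and 12.6 CPM in that order, with a log2 fold of 0.30 (interval 0.09 to 0.52). For both rows the spread between the 2 controls was about as large as the knockdown difference, with log2 folds of -0.34 and -0.45 for shControl against vehicle.

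**Figure D3:**
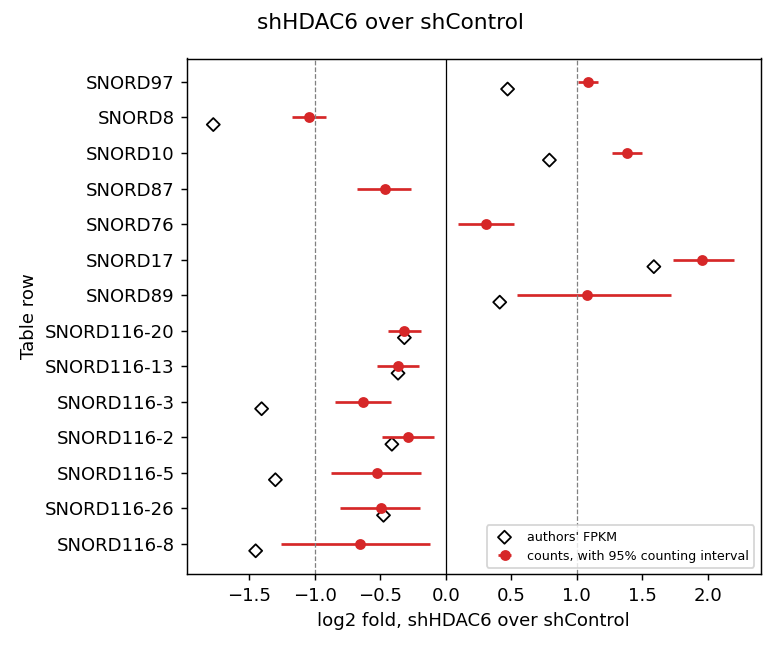
Log2 fold of shHDAC6 over shControl for the 14 rows, from counts (red points, bars are 95% counting intervals) and from the authors' FPKM (open diamonds, absent where the FPKM is 0), with dashed lines at 2-fold. SNORD17 is at least 2-fold higher and SNORD8 at least 2-fold lower on both scales, while SNORD97, SNORD10 and SNORD89 are past 2-fold from counts only.

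The authors' FPKM gave a different picture of the knockdown pair. Among the 12 rows with an FPKM above 0, only SNORD17 was at least 2-fold higher (log2 fold 1.59), beside 1.53% of all rows. SNORD8 (-1.78), SNORD116-3 (-1.41), SNORD116-5 (-1.30) and SNORD116-8 (-1.45) were at least 2-fold lower, beside 0.718% of all rows (2.24% in either direction). SNORD97 had an FPKM log2 fold of 0.47, SNORD10 of 0.79 and SNORD89 of 0.41. The length that the authors' normalization used can be read back from the count, the FPKM and the library total. Over 425 rows with 1 transcript, at least 2000 counts and an FPKM of 20 in every library, and a mean length of 400 bases or more, it was 33.5 bases longer in shHDAC6 than in vehicle (10th to 90th percentile 33.2 to 33.8), against -4.76 in shControl, -4.75 in ACY1215 and -0.35 in CAY10603. For SNORD97 it was 12.1 bases in shControl and 19.1 in shHDAC6, and for SNORD8 it was 3.27 and 5.62 bases. The differences in these 2 rows are smaller in bases than over the 425 long rows. At such short lengths they are still a large part of the divisor. The FPKM of SNORD87 and SNORD76 was listed at 0 in every library although both held over 300 counts in each.

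Most H/ACA and Cajal body rows were also higher in shHDAC6 than in shControl, where their sums were the lowest of the 5 libraries. H/ACA rows summed to 159 CPM in shControl and 247 in shHDAC6, against 222 in vehicle, 224 in ACY1215 and 239 in CAY10603. Cajal body rows summed to 194, 271, 232, 266 and 252 CPM in that order. Against vehicle, 29 of 34 such rows at 1 CPM or more were lower in shControl (median log2 fold -0.41, beside 0.05 for all rows). Of 34 H/ACA and Cajal body rows at 1 CPM or more, 17 were at least 2-fold higher and 2 lower than in shControl, with a median log2 fold of 0.94 from counts and 0.54 from FPKM. Among single rows, the spliceosomal RNA U6 had a log2 fold of 3.60 and the mitochondrial processing RNA RMRP of 1.45, while SCARNA9L had -1.65 and 7SK -0.56. The part that the length shift, or the amount of short RNA kept in either hairpin library, had in the SNORD differences was not tested.

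The rows at least 2-fold apart in the knockdown pair depended on the control. With vehicle in place of shControl, SNORD17 (log2 fold 1.48) and SNORD97 (1.22) remained at least 2-fold higher and SNORD8 (-1.27) lower. The control pair itself, shControl against vehicle, had 0 of 14 SNORD rows at 2-fold, beside 1.09% of all rows higher and 2.61% lower (3.71% in either direction), and its log2 folds were -0.77 for SNORD10, -0.48 for SNORD17, -0.23 for SNORD8 and 0.14 for SNORD97.

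In ACY1215 against vehicle, the 7 rows outside SNORD116 at 1 CPM or more lay within 2-fold of their control. SNORD97 had a log2 fold of 0.04, SNORD8 of 0.10, SNORD76 of -0.02, SNORD89 of -0.07 and SNORD17 of 0.22. SNORD87 was lower in ACY1215 (log2 fold -0.86, interval -1.07 to -0.66), as was SNORD10 (-0.52, interval -0.64 to -0.39). At 2-fold 1 row was lower, SNORD116-2 (log2 fold -1.02, interval -1.33 to -0.75), and none was higher, beside 3.99% of all rows lower and 3.22% higher (7.22% in either direction). SNORD116-2 was 8.41 CPM in shControl and 7.14 in shHDAC6, against 6.39 in vehicle, 2.87 in ACY1215 and 4.55 in CAY10603, so ACY1215 was the lowest library. By the authors' FPKM its ACY1215 fold was 0.11 on the log2 scale, the opposite sign, and no SNORD row was at 2-fold by FPKM, beside 8% of all rows. The table lists 2 transcripts for this row, and its read-back length was 33.3 bases in vehicle but 13.9 in ACY1215.

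CAY10603 against vehicle had no SNORD row at 2-fold, beside 0.136% of all rows higher and 0.544% lower (0.68% in either direction). The highest of the 14 log2 folds were those of SNORD89 (0.84, interval 0.29 to 1.46), SNORD76 (0.64, interval 0.45 to 0.83) and SNORD116-3 (0.42, interval 0.20 to 0.65). The lowest were those of SNORD116-13 (-0.66, interval -0.89 to -0.43), SNORD116-2 (-0.42, but 0.85 by the authors' FPKM) and SNORD116-20 (-0.34). SNORD97 (-0.13), SNORD8 (0.01), SNORD10 (-0.13) and SNORD17 (0.12) lay near vehicle. Under the floor, SNORD9 had 19 counts in vehicle and 57 in CAY10603, a log2 fold of 1.40 (interval 0.72 to 2.32).

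**Figure D4:**
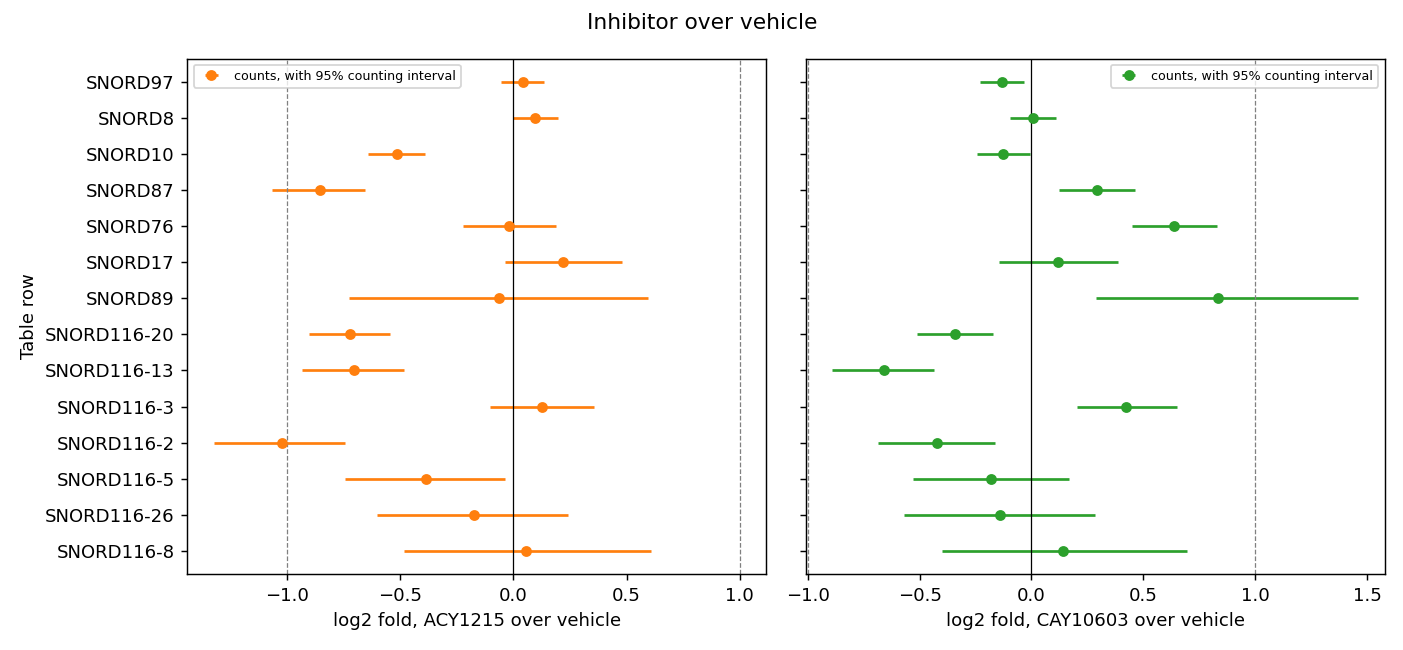
Log2 fold over vehicle of the 14 rows for ACY1215 (left panel) and CAY10603 (right panel), from counts, with 95% counting intervals as bars and dashed lines at 2-fold. SNORD116-2 in ACY1215 is the only point at or past 2-fold, and SNORD87 lies below 0 in ACY1215 and above 0 in CAY10603.

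Between the 2 inhibitors, SNORD87 was the 1 row at least 2-fold apart, higher in CAY10603 (log2 fold 1.15, interval 0.96 to 1.35), beside 2.88% of all rows higher and 2.67% lower (5.56% in either direction). SNORD89 (0.90), SNORD76 (0.65) and SNORD116-2 (0.60) followed, and SNORD97 (-0.17), SNORD17 (-0.10) and SNORD8 (-0.09) were the lowest. Doses and times may differ between the compounds, so the values stand side by side only.

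The SNORD116 rows at 1 CPM or more fell into kinds that the read-back length separates, a split made after their values were seen. SNORD116-20 had a length of 1048 to 1087 bases over the libraries, SNORD116-13 of 988 to 1028 and SNORD116-26 of 1972 to 2019, although the RNAs named are 92 to 96 bases long, so the transcripts behind these rows were longer than the snoRNA. SNORD116-3, SNORD116-5 and SNORD116-8 had lengths of 1.497 to 2.84 bases, and SNORD116-2 lay between them with 13.1 to 43.4. The long rows summed to 37.9 CPM in shControl and 30.8 in shHDAC6, against 25.5 in vehicle, 14.8 in ACY1215 and 18.1 in CAY10603. The short rows summed to 12.95, 8.79, 11.1, 10.1 and 12.4 CPM in that order. The sum of the long rows was thus lower in both inhibitors than in vehicle, while that of the short rows had counting intervals that overlapped that of vehicle in both and was lowest in shHDAC6. In ACY1215 SNORD116-13, SNORD116-20, SNORD116-3 and SNORD116-8 followed their sums. The short SNORD116-5 was lower than in vehicle (log2 fold -0.39, interval -0.75 to -0.04), while the interval of the long SNORD116-26 included 0 (-0.60 to 0.24). SNORD116-2, in neither sum, had log2 folds of -1.02 for ACY1215 and -0.42 for CAY10603.

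SNORD116-20, the most abundant of the cluster, was 20.5 CPM in shControl and 17.03 in shHDAC6, against 14.2 in vehicle, 7.93 in ACY1215 and 10.7 in CAY10603. Its log2 folds were -0.32 for shHDAC6, -0.72 for ACY1215 and -0.34 for CAY10603, each against its own control. SNORD116-26 was 4.02, 2.95, 2.21, 1.79 and 1.91 CPM in that order of libraries. Its log2 fold was -0.18 (interval -0.60 to 0.24) for ACY1215 and -0.14 (interval -0.57 to 0.28) for CAY10603, so neither differed from vehicle beyond counting error. In both long rows the shRNA libraries were above all drug-experiment libraries.

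SNORD116-3 was 8.48 CPM in shControl and 5.66 in shHDAC6, against 6.51 in vehicle, 6.54 in ACY1215 and 8.34 in CAY10603. Here CAY10603 was level with shControl, and the log2 fold was -0.63 for shHDAC6, 0.12 for ACY1215 and 0.42 for CAY10603. SNORD116-5 was 3.19, 2.29, 3.31, 2.33 and 2.79 CPM in that order, with the controls above the other 3 libraries. SNORD116-8 was 1.29, 0.83, 1.24, 1.19 and 1.31 CPM, with only shHDAC6 set apart.

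All 7 SNORD116 rows were lower in shHDAC6 than in shControl (median log2 fold -0.49, beside -0.01 for all rows). Against vehicle, however, 4 of 7 were higher in shHDAC6 (median log2 fold 0.19). Of all rows at 1 CPM or more, 7349 of 13243 were higher in shHDAC6 than in vehicle (median 0.04), a similar share. All 7 were also higher in shControl than in vehicle (median 0.48, beside 0.05 for all rows). The direction of the knockdown difference thus turned with the control in 4 of 7 rows. The short rows stayed lower in shHDAC6 with either control, with log2 folds over vehicle of -0.16 to -0.52. For the 7 rows the median against vehicle was -0.39 for ACY1215, with 5 of 7 rows below 0, and -0.18 for CAY10603, also with 5 of 7. The median over all rows was 0.01 for each inhibitor. For the inhibitors, the knockdown pair and the control pair, the share of all rows on each side of 0 was not computed. SNORD116 copies are alike and their reads can be split between rows, so the 7 rows are not separate observations. Both inhibitors share the vehicle library.

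Other transcripts of the same 15q region, chosen after their values were seen, gave levels of their own. IPW, a noncoding RNA next to SNORD116, was 25.5 CPM in shControl and 18.0 in shHDAC6, against 15.1 in vehicle, 9.83 in ACY1215 and 14.2 in CAY10603, which is the order of libraries seen in the summed long SNORD116 rows. The knockdown log2 fold of IPW was -0.55 from counts but -0.07 by the authors' FPKM. Its read-back length was 6564 bases in shControl and 4875 in shHDAC6. SNRPN, the coding gene at the start of the region, was nearly level (102 to 120 CPM), with log2 folds of -0.03 for shHDAC6, -0.06 for ACY1215 and -0.03 for CAY10603. The other transcripts followed orders of their own. SNURF, which shares its transcript with SNRPN, had log2 folds of -0.66 for shHDAC6, -0.65 for ACY1215 and -0.67 for CAY10603 at 1.49 to 2.83 CPM. PAR-SN had 0.54, -0.42 and -0.20 in that order, PAR5 had -0.25, -0.10 and 0.17, and UBE3A, a ubiquitin ligase gene, had -0.33, -0.04 and 0.14. PAR1 stayed under 1 CPM and was not tested, and none of the other 6 passed the pooled test (edgeR adjusted p = 1.00 for each).

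**Figure D5:**
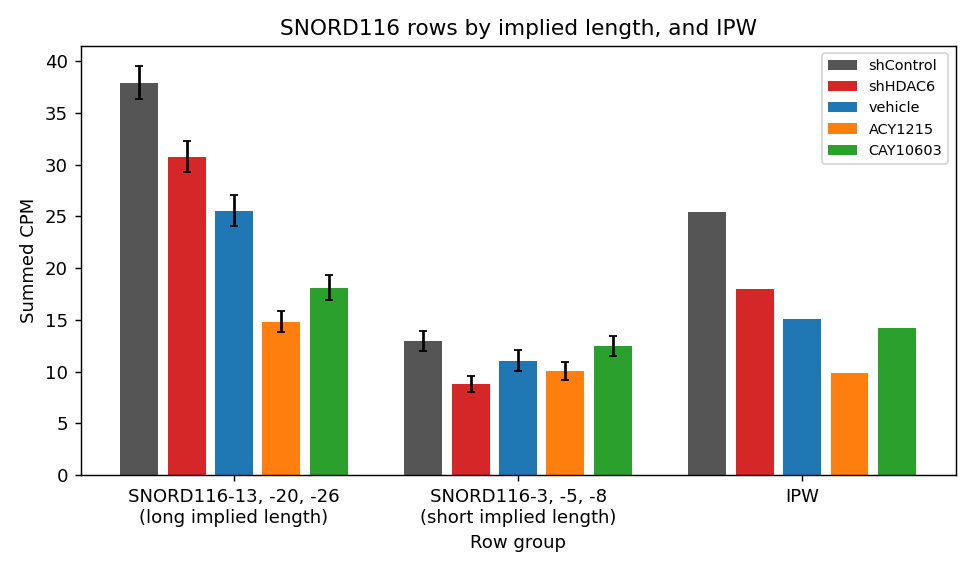
Summed CPM per library of the long SNORD116 rows (SNORD116-13, SNORD116-20, SNORD116-26), of the short ones (SNORD116-3, SNORD116-5, SNORD116-8), each with exact 95% Poisson intervals for counting error, and the CPM of IPW without an interval. The long rows span 14.8 to 37.9 CPM and IPW 9.83 to 25.5 CPM, whereas the short rows stay between 8.79 and 12.95 CPM.

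The folds of host transcripts are set beside those of the rows at 2-fold. These SNORD rows were picked for large folds, while 1.92% of all rows reached 2-fold in the knockdown pair. Host folds nearer 0 thus follow from the choice, and no conclusion is drawn from them. In the knockdown pair the log2 fold was 0.11 for EIF4G2 beside 1.08 for SNORD97, 0.00 for CHD8 beside -1.04 for SNORD8, -0.10 for SNX5 beside 1.96 for SNORD17, and -0.30 for RNF149 beside 1.08 for SNORD89. The read-through row SENP3-EIF4A1, named after its values were seen, had -0.05 beside 1.38 for SNORD10, and the table holds no separate EIF4A1 row. In ACY1215 SNHG6, the host of SNORD87, had a log2 fold of -0.44 beside -0.86 for SNORD87. In CAY10603 GAS5, the host of SNORD76, had -0.06 beside 0.64 for SNORD76. Where a snoRNA overlaps a host exon, the authors' counting may have split reads between both rows.

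Within a single host the rows differed widely. Of the 10 snoRNAs of GAS5, a growth-arrest transcript, 7 were at 0 in all libraries, while SNORD76 held 2119 counts, SNORD47 94 and SNORD79 6. Of the 8 of SNHG1, 3 were at 0, while SNORD22 held 235 counts, SNORD26 223 and SNORD28 54. Of 14 listed symbols of RNAs that act in ribosomal RNA cleavage, only 2 had a row, SNORD22 and SNORD14. The SNORD14 row, a generic entry not matched in GENCODE, was at 0, and the other listed symbols were not in the data. Rows named U3 and U8, outside the SNORD symbols, held 5 and 0 counts in all.

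The proteins of C/D box particles were expressed in every library. Of 15 listed genes for core proteins and assembly factors 14 reached 1 CPM, with FBLL1 at 0, and their sum was 1641 to 1745 CPM per library. None passed the pooled edgeR test. Fibrillarin, FBL, was 49.5 CPM in shControl and 63.4 in shHDAC6, against 59.0 in vehicle, 50.4 in ACY1215 and 48.3 in CAY10603, and its pooled log2 fold was 0.04 (standard error 0.16, edgeR adjusted p = 1.00). The lowest knockdown fold was that of the assembly factor ZNHIT6 (log2 fold -0.79) and the highest that of PIH1D1, a subunit of the R2TP assembly complex (0.55).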

How the data were processed

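Total RNA of 5 libraries was analysed, with 43498805 to 57442767 counts each. The deposited table gives expected counts per gene as whole numbers and FPKM values, which the authors computed, per the file headers. The submitters' processing notes list RSEM 1.2.3, edgeR and hg19, with no role given. The library kit was stranded, but for the aligner, annotation, read length and the strand setting of the counting nothing is stated (not given in the sources used here). In the table, the DMSO column was read as the vehicle library. Left out were 2 blank rows, and 27 rows have symbols that turned into dates. There were 0 columns of unknown samples.

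The expected counts deposited by the authors were used unchanged for edgeR 4.0.16 (R 4.3.3, quasi-likelihood F test, robust, TMM, experiment type as covariate, rows reaching 1 CPM in 2 or more libraries, Benjamini-Hochberg adjustment at 0.05), with DESeq2 1.42.0 and limma 3.58.1 as alternatives. The edgeR step was tested on simulated data. Plain CPM values use library totals and log2 folds use counts scaled by TMM, prior count 2, for rows with a mean of at least 1 CPM. Intervals cover counting error only. Alternatives were other scalings, floors, prior counts, controls and left-out libraries, and the deposited FPKM, which was added after seeing the data.

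Members and lists were chosen with earlier results of these data known. Rows were named by rule: the ribosomal RNA cleavage RNAs, the 15 most abundant rows, the 5 highest and 5 lowest folds per pair, the rows of GAS5 and SNHG1, the imprinted clusters, the particle proteins, and the 5 rows on either side of the 1 CPM floor. The promoter table planned for the motif search held no SNORD genes, so GENCODE 29 transcripts (GRCh38, windows of 50 bases) were used.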

Additional observations from a re-analysis of the deposited data

Results flagged for a closer look

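With TMM scaling, in 4 of the 14 rows the hairpin library and both inhibitor libraries lay on opposite sides of their own controls. The share of all rows with this pattern was not computed, so the count is not a result about SNORD rows. Both inhibitors share 1 vehicle library, each side is 1 library, and the difference between hairpin and inhibitors was not tested. SNORD10 had a log2 fold of 1.38 for shHDAC6, -0.52 for ACY1215 and -0.13 for CAY10603. SNORD8 had -1.04 for shHDAC6, 0.10 for ACY1215 and 0.01 for CAY10603. SNORD116-8 had -0.65 for shHDAC6, 0.06 for ACY1215 and 0.14 for CAY10603. SNORD116-3 had -0.63 for shHDAC6, 0.12 for ACY1215 and 0.42 for CAY10603. The counting intervals include 0 in both inhibitors for SNORD8 and SNORD116-8 and in ACY1215 for SNORD116-3. Scaled by total counts, SNORD8 had -0.99 for shHDAC6, -0.02 for ACY1215 and -0.06 for CAY10603, and SNORD116-8 had -0.06 for ACY1215, so that these 2 rows were no longer on opposite sides in both inhibitors.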

How the results depend on the processing

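Libraries could not be paired by replicate number, because the labels give no replicate numbers that groups share, and those used here only follow the order of the records. Experiment type, which ties each intervention to its control, is a covariate of the test. The 0 calls over all rows held with DESeq2 size factors, DESeq2, limma-voom, no filter and no covariate, and leaving out a library gave 0 to 4 calls, 3 without vehicle (control replicate 2) and 4 without ACY1215 (repressed HDAC6 replicate 2), none of them a SNORD row. In the knockdown pair the 5 rows at 2-fold (4 higher, 1 lower) became 3 (2 higher, 1 lower) with vehicle as control. Total counts left 0 lower, and FPKM gave 1 higher and 4 lower. The 1 row in ACY1215 became 4 with shControl as control and 0 by FPKM, where the log2 fold of SNORD116-2 reversed to 0.11. By FPKM the sign also turned in CAY10603 for SNORD116-2 (0.85) and SNORD8 (-0.07). The 0 rows in CAY10603 became 4 with shControl as control. Between TMM and total counts all log2 folds of the ACY1215 pair shift by 0.12. Over all 3 pairs, the other control moved 33 of 42 row folds by more than their counting interval, FPKM 9 of 36 besides that reversal, and total counts 2 of 42. DESeq2 size factors and a prior count of 0.5 moved none of 42, and a floor of 5 CPM none of 30. The summed level outside SNORD115 and SNORD116 was 21.6 CPM higher in repressed HDAC6, 23.9 with TMM-scaled totals and 8.47 without the highest row, and 3.25 to 35.0 when leaving out a library. Depth limits SNORD89, SNORD116-8 and the rows under the floor, whose intervals are wide. Rows at 0 were not detected in these libraries, which does not show absence, and the reason was not tested.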
